A study of Mus musculus with 8 samples.

Results

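The 10 genes described here are Tff1, Tff2, Tff3, Muc1, Muc4, Muc13, Cdh17, Fabp2, Vil1 and Tmigd1, genes known from the epithelium that lines the gut. They were chosen by name with their measured values in these arrays already known, so their levels and differences are given as a description and carry no test. They are 10 of the 20660 genes that the arrays could name and are read by 12 of 27235 named probes. All 10 were among the 14025 genes kept after dim probes were set aside, and Tmigd1 was kept through its NoRX and CM arrays alone. RNA was measured in BMEL, an established line of bipotential liver progenitor cells derived from mouse embryos, on 8 one-colour Agilent arrays. The cells had been kept in the medium labelled NoRX (3 arrays), CM (3 arrays) or DIFF (2 arrays), and all groups share the same cell line. The title of the series names conditioned media from human amniotic epithelial cells and asks how liver progenitors respond. The labels do not spell out the 3 names, and no composition or exposure time is given in the sources used here. Nothing in the labels says that the arrays of a group came from separate cultures, so the spread between them may be technical.

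Trefoil factors are small, disulfide-rich peptides that mucous cells secrete together with mucins, and they help a damaged surface to close again. Membrane mucins are large cell surface proteins whose extracellular part carries dense O-linked sugar chains and whose short tail reaches into the cell. Villin, the product of Vil1, bundles actin in the microvilli of the brush border, and Cdh17 (LI-cadherin), Fabp2 (intestinal fatty acid binding protein) and Tmigd1 are known from the same epithelium. Bile ducts share some of these genes with the gut, as both arise from neighbouring endoderm. The cells measured here were liver progenitors, and the name intestinal describes where the genes are best known, not the origin of the cells.

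The upstream sequences of the genes that were high in CM are shown first, since Muc1, Muc4 and Tmigd1 had their highest level in CM and their lowest in DIFF, and Muc13 was higher in both media than in NoRX. The RefSeq promoter table (assembly GRCm38.p6) held 6 of the 10 genes, with 8 windows. Tff1, Tff2, Tff3 and Cdh17 were not matched. Each line gives the 250 bases before an annotated transcript start, 5′ to 3′, and capitals mark each match to a short motif searched on both strands.
Muc1 upstream of its start, chr3:89228806-89229055, + strand: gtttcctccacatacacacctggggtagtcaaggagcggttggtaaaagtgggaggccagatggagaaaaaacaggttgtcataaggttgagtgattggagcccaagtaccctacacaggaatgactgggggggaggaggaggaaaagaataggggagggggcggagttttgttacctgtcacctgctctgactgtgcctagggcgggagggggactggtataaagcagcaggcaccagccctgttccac
Muc4 upstream of its start, chr16:32735636-32735885, + strand: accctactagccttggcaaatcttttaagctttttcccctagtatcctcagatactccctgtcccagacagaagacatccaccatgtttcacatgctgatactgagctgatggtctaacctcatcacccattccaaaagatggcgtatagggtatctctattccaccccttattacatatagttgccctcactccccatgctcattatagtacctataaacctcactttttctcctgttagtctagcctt
Tmigd1, first start, chr11:76890870-76891119, + strand: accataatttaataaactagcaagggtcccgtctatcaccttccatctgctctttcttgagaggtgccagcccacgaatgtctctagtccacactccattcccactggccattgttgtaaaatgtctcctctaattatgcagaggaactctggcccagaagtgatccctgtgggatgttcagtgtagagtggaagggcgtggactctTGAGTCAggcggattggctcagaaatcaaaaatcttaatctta
Tmigd1, second start, chr11:76901909-76902158, + strand: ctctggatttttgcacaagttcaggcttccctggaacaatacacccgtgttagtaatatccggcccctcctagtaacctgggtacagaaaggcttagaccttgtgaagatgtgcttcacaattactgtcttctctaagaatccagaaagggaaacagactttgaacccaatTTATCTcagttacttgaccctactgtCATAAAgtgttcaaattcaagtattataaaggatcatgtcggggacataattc
Muc13, first start, chr16:33793787-33794036, + strand: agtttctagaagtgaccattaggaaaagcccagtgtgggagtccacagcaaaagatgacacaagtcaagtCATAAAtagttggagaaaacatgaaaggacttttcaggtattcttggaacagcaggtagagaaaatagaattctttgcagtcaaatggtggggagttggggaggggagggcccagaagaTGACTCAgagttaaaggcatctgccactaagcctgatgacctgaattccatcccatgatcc
Muc13, second start, chr16:33794239-33794488, + strand: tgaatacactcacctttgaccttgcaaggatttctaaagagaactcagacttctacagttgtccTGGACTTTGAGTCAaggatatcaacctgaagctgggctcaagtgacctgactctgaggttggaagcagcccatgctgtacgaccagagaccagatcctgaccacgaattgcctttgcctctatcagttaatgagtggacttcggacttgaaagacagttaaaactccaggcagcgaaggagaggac

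The motifs searched, in windows of this length before 32851 annotated starts, were TTTATG (CDX factors, found in 10.8% of windows), CAAAGTCCA (HNF4A, 0.384%), AGATAA (bound by factors of the GATA family, 9.99%), TGTTTAC (FOXA factors, 3.17%), CCCCACCC (KLF factors, 9.05%), TGANTCA (AP-1, 6.75%), TGACGTCA (CREB, 1.55%), CACGTG (MYC and USF, 6.02%) and AGAACA (part of a glucocorticoid receptor site, 16.1%). The windows of Muc1 and Muc4 held no match. The first Tmigd1 window held TGAGTCA beginning 43 bases before the start, and the second held a CDX match beginning 53 bases and a GATA match 79 bases before it. The first Muc13 window held a CDX match 180 bases and an AP-1 match 61 bases before the start. The second Muc13 window held TGGACTTTG, the HNF4A motif on the other strand, 186 bases before the start, overlapping an AP-1 match 179 bases before it. The Fabp2 window held no match, and the Vil1 window held the KLF motif 112 bases before the start. These are matches of letters alone, and no binding was measured.

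By the scanner's own flag, the share of the 59305 non-control spots well above background ranged from 50.8% to 53.5% on 7 arrays and was 46.4% on DIFF replicate 2. Spots flagged for uneven background numbered 1159 on that array and 3 to 90 elsewhere, and the median SD of a gene was 0.194 between the DIFF arrays against 0.064 in each other group. No spot of the 10 genes carried a flag for an outlier, an uneven background or saturation. Of 11 liver progenitor and biliary markers, 10 were tested, and those 10 were well above background on every NoRX array, among them Krt19, Krt8, Krt18 and Sox9. All 10 were so on every CM array and 8 on both DIFF arrays. At the threshold of 0.05 on limma's adjusted p, 3 were higher and 6 lower in CM than in NoRX. In DIFF 2 were higher and 8 lower than in NoRX. Over all genes, 26.9% were higher and 25.3% lower in CM, and 14.0% and 28.1% in DIFF. Epcam, Spp1 and Prom1 were higher in CM and lower in DIFF than in NoRX, and Krt7 and Cd24a the reverse. Of 12 hepatocyte markers, 7 were well above background on every array in NoRX, 10 in CM and 11 in DIFF. Of 9 leukocyte markers, the 3 that were tested (Itgam, Csf1r and Cd3e) were well above background on every array by the probe used. The summed signal of the list was 11120 to 12050 in NoRX, 12360 to 14080 in CM and 8376 to 9230 in DIFF. Most of that sum was the Itgam probe used, which read 8627 to 9371 in NoRX, while other Itgam probes read 20.3 to 31.6 there. Of the other leukocyte markers with a probe, Adgre1 and Lyz2 were not well above background on any array, Ptprc was so on 1 CM array and Cd79a on 1 NoRX array. Of 8 fibroblast markers, 5 were tested and Lum, Pdgfrb and Thy1 did not pass the filter on dim probes. Of those 5, 4 (Col1a1, Col1a2, Dcn and Pdgfra) were well above background on every NoRX and CM array, and none on both DIFF arrays. The fibroblast list summed to a signal of 332 to 350.3 in NoRX, 479.5 to 699 in CM and 116 to 118 in DIFF. Its genes did not all share the order of that sum. In CM against NoRX, Pdgfra was higher, Col1a1 was lower (log2 difference -0.66) and 3 did not pass the threshold. In DIFF against NoRX 2 were lower and 3 did not pass. Dcn read 280.8 on CM replicate 1 and 40.6 and 44.1 on the other CM arrays. The part of these cell types in the results was not tested.

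Tff3 was the gene of this group with the largest rise in signal in DIFF, while its sister genes Tff1 and Tff2 did not follow it. Tff3, known from goblet cells of the intestine and also from bile ducts, had processed signals, a linear intensity, of 3063, 2530 and 1978 on the NoRX arrays. Its signals were 2838, 2657 and 2678 on the CM arrays and 131992 and 137566 on the DIFF arrays. NoRX and CM overlapped, and both DIFF arrays lay far above them. On the scale used from here on, the log2 signal relative to each array's 75th percentile, Tff3 averaged 1.76 ± 0.25 (SD, n = 3) in NoRX, 1.74 ± 0.08 (SD, n = 3) in CM and 7.31 ± 0.23 (SD, n = 2) in DIFF. The log2 difference of DIFF from NoRX was 5.55 ± 0.14 (SE from the fit of all arrays), 46.8-fold, and that of DIFF from CM was 5.57 ± 0.14, 47.3-fold. The difference of CM from NoRX was -0.02 ± 0.12. The fit takes 1 spread per gene for all groups, while the median SD of a gene was larger between the DIFF arrays. For DIFF differences the SE and adjusted p given here and below can therefore be too small. Among the 12153 genes well above background on every NoRX and DIFF array, 14 had a larger difference than Tff3, which ranked 15 from the top. In bulk RNA a change in the share of cells that express a gene and a change in RNA per cell cannot be told apart, which holds for every gene below. Hepatocyte markers were also higher in DIFF, 10 of 12 being higher and none lower than in NoRX, against 14.0% and 28.1% over all genes. Of those 10, Cps1 was well above background on the DIFF arrays alone, and Apoa1 there and on 1 CM array. Both thus passed the filter on dim probes only through the group where they are high. In CM, where Tff3 differed by -0.02, 6 of the 12 were higher and 1 lower than in NoRX, against 26.9% and 25.3% over all genes. The summed signal of the 12 markers ran from 36490 to 40170 in NoRX, 45510 to 57830 in CM and 242800 to 246300 in DIFF. Their part in the result was not tested.

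Tff1, the trefoil peptide of the stomach surface, was bright in every group. Its signals were 473267, 471146 and 439829 in NoRX, 362155, 353137 and 370153 in CM and 398594 and 407269 in DIFF. The NoRX arrays were the highest, and DIFF and CM overlapped once the arrays were scaled. Its log2 difference from NoRX was -0.50 ± 0.09 in CM (1.41-fold lower) and -0.41 ± 0.10 in DIFF (1.33-fold lower). The DIFF difference became -0.25 with median centring and -0.08 with quantile normalization, and no longer passed the threshold under either. The highest Tff1 spot reached 61.6% of the scanner's saturation value, so that the spot was bright but not saturated. The second Tff1 probe gave -0.46 for CM and -0.38 for DIFF against NoRX, so both probes differed the same way.

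Tff2, the trefoil peptide of gastric neck cells, differed least. Its signals were 7595, 6564 and 5922 in NoRX, 6729, 6234 and 6742 in CM and 6824 and 6864 in DIFF. The raw NoRX range overlapped those of CM and DIFF, and both DIFF signals lay just above the CM signals. The log2 differences were -0.17 ± 0.10 for CM and -0.17 ± 0.11 for DIFF against NoRX, and -0.004 ± 0.111 between DIFF and CM. None of the 3 passed the threshold. After scaling all CM arrays lay just below the NoRX arrays, and without DIFF replicate 1 the DIFF difference from NoRX was -0.36 and passed. The RefSeq gene table places Abcg1, Tff3, Tff2, Tff1 and Tmprss3 one after the other. Of the outer neighbours, which were looked up after the Tff values were known, the cholesterol exporter gene Abcg1 rose in CM by a log2 difference of 2.99 ± 0.42 (limma, adjusted p = 0.000121) and did not pass the threshold in DIFF (-0.72 ± 0.47, adjusted p = 0.244). The serine protease gene Tmprss3 differed by 0.02 ± 0.10 in CM and -0.003 ± 0.106 in DIFF (adjusted p = 0.893 and 0.984). The large DIFF difference was thus seen in Tff3 and in none of the other 4 genes of this run.

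**Figure D1:**
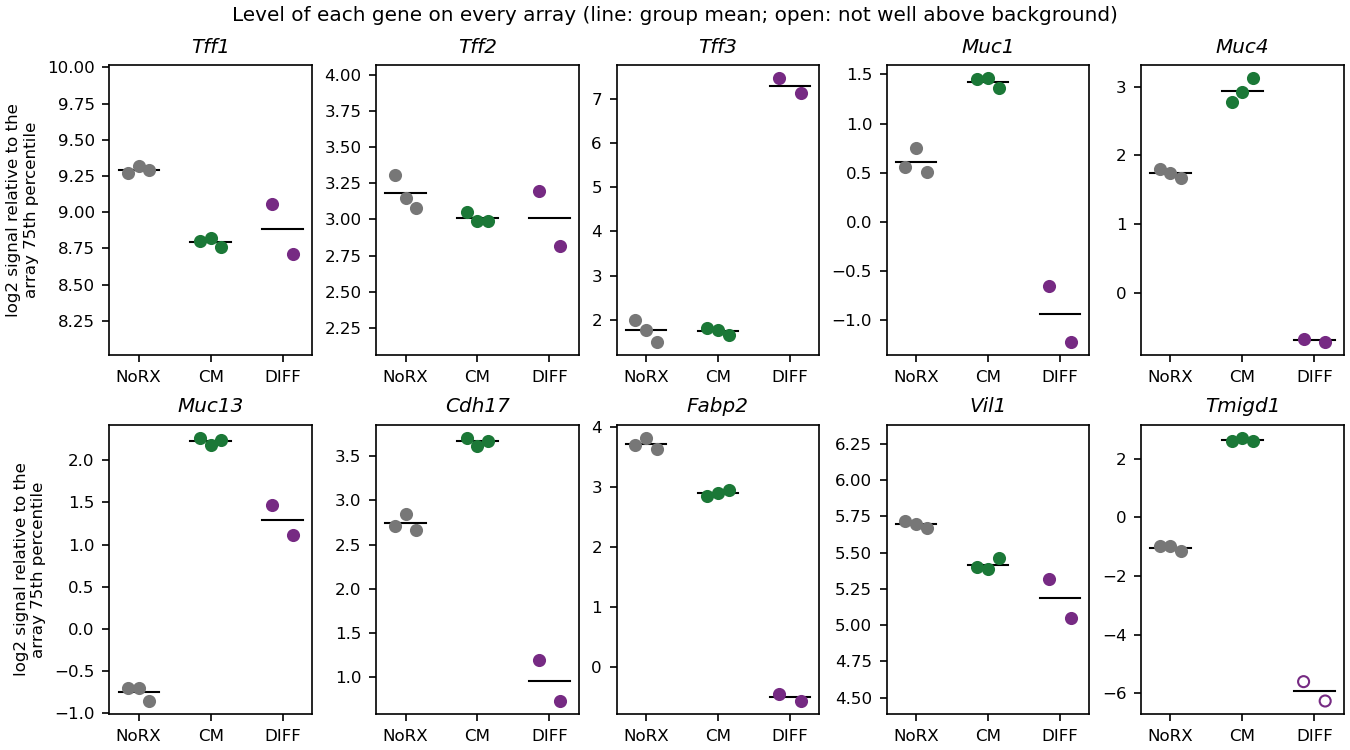
Log2 signal of the probe used for each of the 10 genes relative to the array's 75th percentile (vertical axis), by medium (horizontal axis), with 1 point per array, a line at the group mean and open points where no array of the group was well above background. The 2 DIFF points of Tff3 lie near 7.31, while its NoRX and CM points lie near 1.76 and 1.74.

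Muc1 and Muc4, cell surface mucins, were higher in CM and lower in DIFF than in NoRX. Muc1, the mucin of the apical surface of many simple epithelia, had signals of 1125, 1245 and 996 in NoRX, 2212, 2154 and 2185 in CM and 475 and 418 in DIFF. The 3 groups did not overlap. Its log2 differences from NoRX were 0.82 ± 0.13 in CM (1.76-fold) and -1.54 ± 0.15 in DIFF (2.91-fold lower), and DIFF was 5.12-fold below CM. Muc4, which can pair with the receptor ErbB2 at the membrane, had signals of 2660, 2488 and 2232 in NoRX, 5559, 5941 and 7390 in CM and 468 and 594 in DIFF. Its groups were likewise separate, with CM highest and DIFF lowest. Its log2 differences from NoRX were 1.20 ± 0.09 in CM (2.30-fold) and -2.43 ± 0.10 in DIFF (5.40-fold lower), and DIFF was 12.4-fold below CM. A second, much dimmer Muc4 probe gave a log2 difference of 1.17 for CM against NoRX. That probe was not well above background on either DIFF array, with signals of 15.4 and 10.3 there against 31.3 to 36.2 in NoRX.

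Muc13, a membrane mucin abundant on intestinal and colonic cells, was higher in both media than in NoRX. Its signals were 466, 455 and 386 in NoRX, 3914, 3555 and 4019 in CM and 2067 and 2102 in DIFF. The groups did not overlap, and DIFF lay between the others. The log2 difference from NoRX was 2.99 ± 0.10 in CM (7.95-fold) and 2.05 ± 0.11 in DIFF (4.14-fold), and that of DIFF from CM was -0.94 ± 0.11. In CM it ranked 34 from the top among the 12583 genes well above background on every CM and NoRX array. Muc4 and Muc20, a further membrane mucin gene, are neighbours in the RefSeq gene table. Muc20 differed by 0.10 ± 0.15 in CM (adjusted p = 0.61), where Muc4 was higher, and it fell by 0.67 ± 0.17 in DIFF (limma, adjusted p = 0.00773), as Muc4 was lower.

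**Figure D2:**
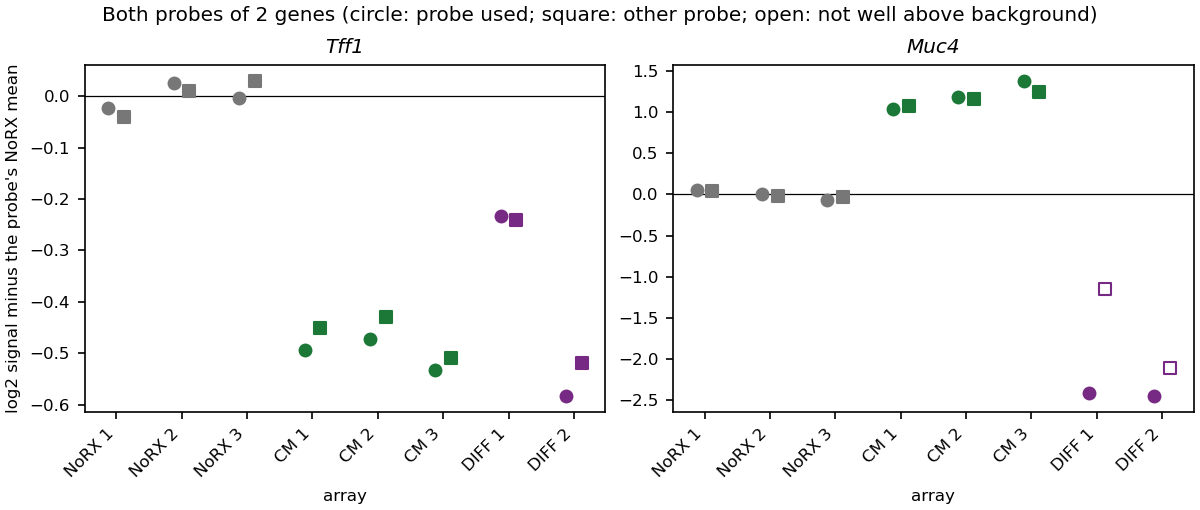
Log2 signal minus the same probe's NoRX mean (vertical axis) on each of the 8 arrays (horizontal axis) for both probes of Tff1 and of Muc4, with circles for the probe used, squares for the other and open squares where no array of the group was well above background. The Muc4 probes lie together in CM, where their differences are 1.20 and 1.17, and the Tff1 probes lie together in every group.

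Cdh17, a cadherin that joins intestinal epithelial cells, followed the order seen in Muc1 and Muc4. Its signals were 5015, 5345 and 4447 in NoRX, 10610, 9637 and 10849 in CM and 1702 and 1618 in DIFF. The 3 groups were separate, with CM highest. Its log2 differences from NoRX were 0.92 ± 0.11 in CM (1.90-fold) and -1.78 ± 0.12 in DIFF (3.44-fold lower), and DIFF was 6.52-fold below CM.

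Tmigd1, an immunoglobulin-type adhesion protein of intestinal and kidney epithelium, had the widest range. Its signals were 387, 374 and 321 in NoRX and 4903, 5166 and 5149 in CM. The log2 difference of CM from NoRX was 3.67 ± 0.15 (12.7-fold), which ranked 15 from the top among the same 12583 genes. On the DIFF arrays its signals were 15.3 and 12.7, not well above background. With the reported processing Tmigd1 was therefore at least 14.6-fold lower in DIFF than in NoRX and at least 186-fold lower than in CM. For these bounds the DIFF level is set at the lowest signal well above background on each array. With normexp background correction the fitted difference of DIFF from NoRX was -2.04, against -4.90 in the reported fit. That of DIFF from CM ran from -8.90 to -5.47 over the alternatives, against -8.57, so the bounds do not hold under every processing. Both directions held in all 21 alternatives that gave a value. Its neighbours in the RefSeq gene table, Cpd and Blmh, differed from NoRX by 0.26 ± 0.08 and 1.00 ± 0.09 in CM (limma, adjusted p = 0.0145 and 3.08e-06).

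Fabp2, which carries fatty acids inside absorptive cells, was lower in both media. Its signals were 9863, 10441 and 8662 in NoRX, 5823, 5840 and 6559 in CM and 545 and 657 in DIFF. NoRX was highest and DIFF lowest, with no overlap. The log2 difference from NoRX was -0.82 ± 0.07 in CM (1.76-fold lower) and -4.22 ± 0.08 in DIFF. In DIFF it ranked 10 from the bottom of 12153 genes.

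Vil1 was bright everywhere and varied little. Its signals were 40169, 38395 and 35582 in NoRX, 34156, 32776 and 37370 in CM and 29708 and 32295 in DIFF. The raw ranges of NoRX and CM overlapped, but not the scaled ones. Its log2 differences from NoRX were -0.28 ± 0.08 in CM and -0.51 ± 0.08 in DIFF, and DIFF differed from CM by -0.23 ± 0.08. The last value became -0.06 with median centring and -0.10 without DIFF replicate 2, and did not pass the threshold in either.

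Counted over the 10 genes, 5 were higher and 3 lower in CM than in NoRX past the threshold of 0.05 on limma's adjusted p, and 2 (Tff2 and Tff3) did not pass. Over all 14025 genes, 26.9% were higher and 25.3% lower in that comparison. In DIFF against NoRX, 2 were higher (Tff3 and Muc13), 7 lower and 1 (Tff2) did not pass, against 14.0% higher and 28.1% lower over all genes. In DIFF against CM, 1 was higher (Tff3), 7 were lower and 2 (Tff1 and Tff2) did not pass, against 23.6% higher and 35.6% lower. As the genes were selected on these contrasts, nothing is read from the counts. The median log2 difference of the 10 was 0.40 in CM against NoRX, -1.02 in DIFF against NoRX and -1.65 in DIFF against CM, and that of all genes was 0.01, -0.10 and -0.11. With median centring the median of all genes in DIFF against NoRX became 0.05, and the calls over all genes split into 2400 higher and 2132 lower, against 1964 and 3947. In DIFF against CM they split into 3936 and 3182, against 3315 and 4988, and the 10 genes into 2 higher and 6 lower. Without DIFF replicate 2 the calls over all genes split into 3768 higher and 3367 lower in DIFF against NoRX, and those of the 10 genes stayed at 2 and 7, with the remaining DIFF array assumed to vary like the other groups.

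Leaving out any 1 array reversed no called difference of the 10 genes. Row 1 of the slide held the NoRX arrays with CM replicate 1, and row 2 held the other CM arrays with both DIFF arrays. Within row 1, CM replicate 1 minus NoRX was 3.63 for Tmigd1, 3.03 for Muc13, 1.04 for Muc4, 0.97 for Cdh17, 0.84 for Muc1 and -0.87 for Fabp2. Within row 2, DIFF minus CM was 5.60 for Tff3, -3.71 for Muc4, -3.43 for Fabp2, -2.68 for Cdh17 and -2.34 for Muc1. DIFF and NoRX never shared a row, so for that comparison row and medium were separated only through CM. On the scaled values, DIFF replicate 2 was below replicate 1 for all 10 genes. Its log2 difference from replicate 1 ran from -0.66 to -0.04 with a median of -0.36, and the median over all genes was -0.26.

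**Figure D3:**
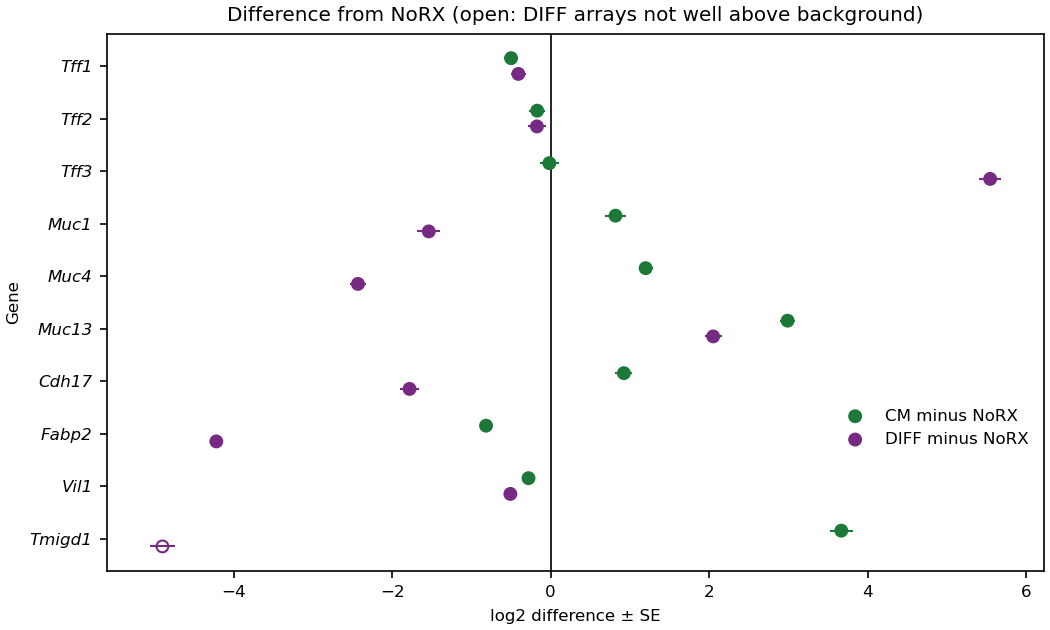
Log2 difference from NoRX with its SE (horizontal axis) for each of the 10 genes (vertical axis), for CM in green and DIFF in purple, with an open point where the DIFF arrays were not well above background. Muc1, Muc4, Cdh17 and Tmigd1 lie to the right of 0 in CM and to the left in DIFF, and Tff3 lies at 5.55 in DIFF and at -0.02 in CM.

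**Figure D4:**
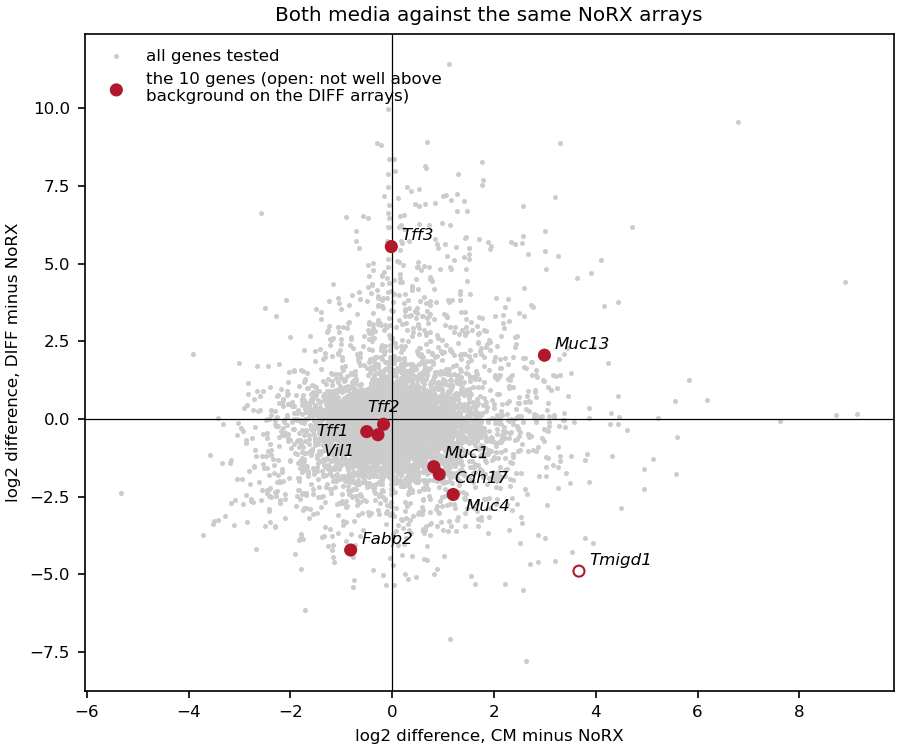
Log2 difference of CM from NoRX (horizontal axis) and of DIFF from NoRX (vertical axis) for all 14025 genes tested in grey and the 10 genes in red, with Tmigd1 open as its DIFF arrays were not well above background. Both axes use the same NoRX arrays, so their errors are shared, and Tff1, Tff2 and Vil1 lie close to the origin.

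Other genes of gut epithelium were taken from 9 lists by function, with the 10 genes left out. The lists held 160 genes, of which 108 were tested. In CM against NoRX 35 rose, 30 fell and 43 did not pass (32.4% and 27.8%, with a median of -0.04). In DIFF against NoRX 21 rose and 45 fell (19.4% and 41.7%, median -0.20), and in DIFF against CM 32 rose and 44 fell (29.6% and 40.7%, median -0.16). Without DIFF replicate 2, 28 rose and 42 fell in DIFF against NoRX. These shares stand beside the shares over all genes given above and are descriptions of the lists.

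Among the 17 tested genes of brush border structure, 8 rose and 1 fell in CM against NoRX, with a median of 0.23. In DIFF against NoRX 3 rose and 7 fell (median -0.03), and in DIFF against CM 4 rose and 11 fell (median -0.59). Without DIFF replicate 2 the counts were 8 and 4 in CM against NoRX, 7 and 6 in DIFF against NoRX, and 5 and 11 in DIFF against CM. Ush1c (harmonin), a scaffold of the links between microvilli, rose 6.75-fold in CM (log2 difference 2.76 ± 0.12, limma adjusted p = 2.71e-08) and 3.54-fold in DIFF (adjusted p = 8.14e-07). Its motor partner Myo7b rose 2.46-fold in CM (adjusted p = 7.98e-08) and was 5.14-fold lower in DIFF than in CM (adjusted p = 5.27e-10). The protocadherin Cdhr2, which forms those links, rose 1.65-fold in CM (adjusted p = 9.68e-06) and fell by 0.58 ± 0.08 on the log2 scale in DIFF (adjusted p = 0.000128). The actin bundler Espn fell 10.4-fold in DIFF (adjusted p = 1.3e-09), and the scaffold gene Pdzk1 fell 4.21-fold (adjusted p = 6.93e-07), with 1 of 2 DIFF arrays well above background. Cdhr5, the partner of Cdhr2, had signals of 1011 and 222420 on the 2 DIFF arrays, and the second spot carried a flag for uneven background. Its DIFF difference of 4.04 ± 1.45 (adjusted p = 0.0444) became 0.34 without DIFF replicate 2 and 7.73 without DIFF replicate 1.

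Among 17 tested enzymes of mucin-type O-glycosylation, 6 rose and 5 fell in CM, and 4 rose and 9 fell in DIFF, against NoRX. Galnt6, which attaches the first sugar to serine or threonine, rose 4.88-fold in CM (limma, adjusted p = 3.27e-08). Its signals were 320.5, 361 and 304 in NoRX, 1729, 1800 and 1792 in CM and 29.8 and 33.6 in DIFF, so it had its highest level in CM and its lowest in DIFF, as the mucins Muc1 and Muc4 did. It fell by 3.59 ± 0.12 on the log2 scale in DIFF against NoRX (adjusted p = 1.27e-09), with 1 of 2 DIFF arrays well above background. Fut2, the fucosyltransferase of secretor status, rose in both media, 3.48-fold in CM and 7.29-fold in DIFF (adjusted p = 2.38e-05 and 1.37e-06). Galnt1, of the same family as Galnt6, fell 2.78-fold in DIFF (adjusted p = 2.69e-07).

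Of the gel-forming mucins, no probe was matched to Muc2, the main mucin of goblet cells, and Muc5ac, of the stomach surface, fell 2.32-fold in CM (limma, adjusted p = 1.13e-06). Of 3 further membrane mucin genes tested, Cd164, a sialomucin, rose 1.88-fold in CM (adjusted p = 1.76e-06), Podxl fell 1.53-fold in CM and rose 1.84-fold in DIFF (adjusted p = 0.000106 and 1.85e-05), and Muc20 is described above. Among 10 tested goblet cell genes, 3 rose and 5 fell in CM, and 1 rose and 4 fell in DIFF, against NoRX. The gene that rose in DIFF was Zg16, a lectin of goblet cell granules, with signals of 22.5 to 26.7 in NoRX, 30.6 to 44.4 in CM and 871 and 996 in DIFF. With the reported processing Zg16 was at least 32.8-fold higher in DIFF than in NoRX (adjusted p = 1.76e-08), and so was high in DIFF like Tff3. Minimum folds of this kind were computed with that processing alone. Clca1, secreted by goblet cells, fell 8.25-fold in CM (adjusted p = 4.67e-08). The goblet cell genes Agr2 and Atoh1, a secreted protein folding partner and the master factor of secretory cells, were not well above background on any array, and Spdef was so on 1 NoRX, 3 CM and 1 DIFF arrays.

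Among 23 tested enterocyte genes, 8 rose and 5 fell in CM, and 7 rose and 8 fell in DIFF, against NoRX. Fabp1, the liver-type relative of Fabp2, rose 5.36-fold in CM (limma, adjusted p = 1.49e-06), where Fabp2 was lower. The ileal bile acid carrier Fabp6 rose 5.16-fold in CM and the guanylate cyclase ligand Guca2b 3.74-fold (adjusted p = 2.75e-05 and 3.37e-08). In DIFF the retinol carrier Rbp2 rose 20.1-fold (adjusted p = 1.31e-09), while Fabp2, of the same protein family, differed by -4.22 on the log2 scale. With the reported processing Apoa4, an apolipoprotein of intestine and liver, was at least 21.3-fold higher in DIFF than in NoRX. However, Apoa4 was well above background on the DIFF arrays alone and so entered the fit only through the group where it is high. Treh, the trehalase of the brush border, was with that processing at least 26.3-fold higher in DIFF than in NoRX. That fold is on the mean of both DIFF arrays (adjusted p = 0.00145). Its DIFF signals were 108.5 and 3113, the second from a spot flagged for uneven background, so the fold is no minimum for a single array. Its fitted log2 difference ran from 3.25 without DIFF replicate 2 to 7.71 without the other DIFF array. Slc2a5, the fructose transporter, was lower in CM (adjusted p = 0.000487), with 1 of 3 CM arrays, replicate 1, well above background. Its fitted log2 difference of -2.87 became -3.52 without that array, and then rested on CM arrays not above background. The disaccharidase gene Sis was among the 11 genes of this list that did not pass the filter on dim probes.

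Among 10 tested genes of stomach lining, where Tff1 and Tff2 are best known, 1 rose and 5 fell in CM, and 3 rose and 4 fell in DIFF, against NoRX. Gkn1, a secreted gastrokine, fell 5.45-fold in CM (limma, adjusted p = 4.16e-08), and Vsig1 fell 2.41-fold (adjusted p = 9.56e-07). Anxa10 had log2 differences of -0.92 in CM and -3.32 in DIFF (adjusted p = 3.17e-06 and 2.62e-10). Of the proton pump subunits, Atp4b rose 3.31-fold in CM (adjusted p = 7.75e-06), where Atp4a was not well above background on any array. The 2 went apart in DIFF. There Atp4b fell 2.285-fold against NoRX (adjusted p = 0.000331), and Atp4a was at least 4.27-fold higher with the reported processing. Atp4a likewise entered the fit only through the DIFF arrays, and its call was lost with array weights. Of 8 tested genes of other intestinal cell types, 2 rose and 2 fell in CM and 1 fell in DIFF, the hormone gene Cck (log2 difference -3.46 ± 0.13, adjusted p = 4.29e-09).

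**Figure D5:**
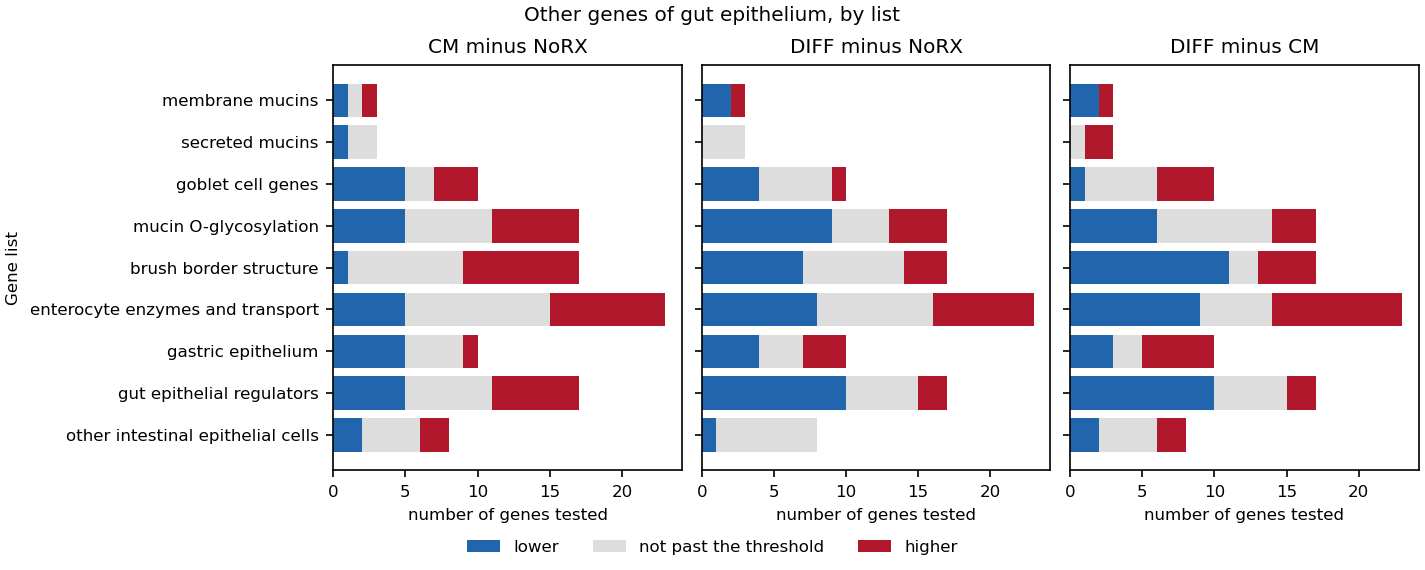
Number of tested genes (horizontal axis) of each gut epithelium list (vertical axis) that were lower (blue), did not pass the threshold (grey) or were higher (red) in the 3 comparisons. In brush border structure 8 genes rose and 1 fell in CM, whereas 11 fell and 4 rose in DIFF against CM.

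Among 17 tested regulators of gut epithelium, 6 rose and 5 fell in CM, and 2 rose and 10 fell in DIFF, against NoRX. Cdx2, the homeobox factor that sets intestinal identity, had signals of 1163, 1480 and 1243 in NoRX, 3039, 2580 and 3357 in CM and 556 and 758 in DIFF. The groups did not overlap. It rose by 1.06 ± 0.11 in CM (2.08-fold, limma adjusted p = 1.07e-05) and fell by 1.20 ± 0.12 in DIFF (2.30-fold, adjusted p = 9.26e-06), and thus had the order of Muc1, Muc4, Cdh17 and Tmigd1. Its relative Cdx1 was well above background on 1 CM array and on no other. Hnf4a, a factor of both liver and gut, fell in both media, by 0.73 ± 0.08 in CM and 0.54 ± 0.09 in DIFF (adjusted p = 3.13e-05 and 0.000811), and Klf4 fell by 0.74 in both (adjusted p = 4.65e-06 and 1.15e-05). Foxa1 rose 3.47-fold and Klf5 1.53-fold in CM (adjusted p = 1.16e-08 and 0.000384), while Foxa2 fell 1.85-fold (adjusted p = 4.66e-06). Gata4 fell 2.92-fold in DIFF (adjusted p = 1.02e-06), where Elf3 rose 1.39-fold (adjusted p = 0.0102).

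The genes most like each of the 10 were sought among 11518 genes well above background on all arrays, by the root mean square difference of log2 values over the 8 arrays after each gene was centred on its mean. The gene nearest to Tff3 was Rgs2, an inhibitor of G protein signalling, at 0.326, with a DIFF difference from NoRX of 5.45. Next came Arl4d at 0.387 and Ttr, the thyroid hormone carrier made by hepatocytes, at 0.477. These distances are not scaled to the range of a gene, and of the genes compared this way Tff3 had the widest range, 5.97 on the log2 scale. Muc13 was nearest to Ano9 at 0.0517, then to Ush1c at 0.157 and Cited1 at 0.224. Muc1 was nearest to the anion transporter Slc26a9 at 0.0548, followed by Paqr5 and Rasal2. Cdh17 was nearest to Gpa33, an antigen of intestinal epithelium, at 0.0926, and shared Paqr5 with Muc1 among its 3 nearest. Muc4 lay nearest to Ms4a8a at 0.111 and to the epithelial factor Ehf at 0.113. Fabp2 lay nearest to the keratin genes Krt79 at 0.176 and Krt78 at 0.225, which differed from NoRX by -4.59 and -4.07 in DIFF. The nearest genes of the little-varying Tff1, Tff2 and Vil1 were Ecsit at 0.031, Riok1 at 0.0437 and Tars2 at 0.0288. Tmigd1 was not eligible, as its DIFF arrays were not well above background. With 8 arrays in 3 groups, such likeness describes mostly the order of the group means.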

How the data were processed

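Total RNA of 8 BMEL samples was labelled with Cy3, per the labels' protocols. The submitters' processing notes name Agilent Feature Extraction 11.0.1.1, which wrote the deposited scanner files. Their processed signal is a linear intensity with the background subtracted, per the file headers. The values in the series table were identical to these. From these intensities the log2 signal minus each array's 75th percentile over spots that are not controls was computed. Outlier spots were left out, spots of a probe were averaged, and probes were named through RefSeq accessions (27235 of 55681 probes, 20660 genes). The probe with the highest mean stood for a gene, and genes well above background on at least 2 arrays were kept (14025, with 30 missing values in all). Differences were fitted with limma 3.58.1 in R 4.3.3 over all 8 arrays (eBayes with a trend, two-sided, Benjamini-Hochberg adjustment over all genes, threshold 0.05), and figures were drawn with matplotlib. The functions were tested on simulated data. Precision is limited by the number of arrays.

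The 10 genes and the lists were chosen with earlier results of these data known. Named besides the 10 genes were up to 4 genes per list and comparison, those past the threshold with the largest differences, a fixed panel of regulators, the 3 nearest profiles of each gene, and neighbours looked up later; not all of these are printed, and some are not reported here. Galnt6, Cdx2 and Zg16 signals by array were chosen for printing after their values were seen. Alternatives covered scaling, background correction, the filter, the probe rule, array weights, blocks and leaving out each array. The normexp alternative was run on the median spot signal in place of the mean.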

Additional observations from a re-analysis of the deposited data

How the results depend on the processing

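Over 22 alternatives, of which 1 (the percentile taken over probes) was chosen after seeing the data, 657 values of the 10 genes' differences were computed. Of these, 594 moved by less than the spread between arrays, 63 moved further and none reversed a called direction. Some of the 594 could not move, since their alternative left the group means as they were. Examples are the series table, identical to the processed signal, and leaving out an array of the group not compared. The 594 is therefore no measure of stability. Total counts of called genes among the 10 and over the 9 gut epithelium lists together stayed within 1.5 times of the reported ones in all alternatives. Single lists, which were recounted only without DIFF replicate 2, moved further in places, as given above for brush border structure. Over all genes, slide row as a block gave 4796 calls for CM against NoRX in place of 7325, and 2801 for DIFF against NoRX in place of 5911. With array weights 3041 genes were called in DIFF against NoRX, and in DIFF against CM 5383 in place of 8303. With the replicate number as a block the counts were 6867, 5285 and 7766, and 8, 9 and 7 of the 10 genes were called. Arrays of the same number did not deviate together (correlations from -0.06 to 0.181), so the numbers were not taken to pair the arrays. Among the 10 genes, Vil1 in DIFF against CM (lost in 15 alternatives), Vil1 in CM against NoRX (lost in 2), Tff1 in DIFF against NoRX (lost in 3), Tff1 in DIFF against CM (gained in 3) and Tff2 (gained in CM against NoRX in 5 and in DIFF against NoRX without DIFF replicate 1, at -0.36) changed sides of the threshold. Tff1 in DIFF against CM was 0.27 without DIFF replicate 2. The fit restricted to genes well above background on all 8 arrays gave no value for Tmigd1. Among list genes named for DIFF against NoRX, array weights ended the calls of Muc20 and Atp4a, normexp those of Muc20 and Elf3, and slide row as a block those of Muc20, Elf3, Treh and Cdhr5. The cause of these changes was not tested. The DIFF group holds 2 arrays, which a label numbers both as replicate 1, and dim spots near background limit Tmigd1 in DIFF.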
